A study of Homo sapiens with 4 samples.

Results

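The genes examined were 10 transcription factor genes of the AP-1 and early growth response (EGR) families, FOS, FOSB, FOSL1, FOSL2, JUN, JUNB, JUND, EGR1, EGR2 and EGR3, taken from 56304 gene rows by matching their symbols. All 10 were in the table, and 9 passed the filter on low counts. They were measured by bulk RNAseq in MV3 cells, an established line of highly metastatic human melanoma that carried an H2B-GFP label of the nuclei in every sample. Spheroids of 50000 cells with a diameter of 1 mm were grown in collagen I for 2 days without irradiation or drug, after which a punch of 1 mm removed the core and, afterwards, a punch of 3 mm removed the cells that had invaded the collagen around it. There were 2 core libraries and 2 invasion zone libraries, numbered replicate 1 and replicate 2 in each zone. The culture was 1 cell line, and because the cut was vertical, the core punch can retain invading cells from above and below the core. The labels do not say whether the replicates were separate cultures, so p-values measure the spread between these libraries only.

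AP-1 is a dimer of basic leucine zipper proteins that binds the short DNA element TGAGTCA. JUN-type proteins pair with each other or with FOS-type proteins, whereas FOS-type proteins need a JUN-type partner to bind DNA. FOS, FOSB, JUN, JUNB and the EGR genes are immediate-early genes, whose short-lived transcripts appear within minutes of serum, stretch, wounding or tissue handling. FOSL1 and FOSL2 are delayed members that follow sustained ERK signaling, FOSL1 is well known from invasive and dedifferentiated tumor cells, and JUND is expressed in most cells without a stimulus. EGR proteins are zinc finger factors that bind GC-rich elements and are induced through serum response factor.

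The libraries held 11789243 to 37591782 counts, with both replicate 2 libraries the shallower ones, and 1 count was worth 0.0266 to 0.0848 CPM, where CPM is a gene's count scaled to a common library total. Several lists moved with the zone or the replicate. The summed level of 10 oxygen-responsive genes was 1480 to 1610 CPM in the core and 461 to 617 CPM in the invasion zone, and that of 10 proliferation genes was 651 and 1310 CPM in the core and 2040 and 2540 CPM in the invasion zone. Mitochondrially encoded transcripts took 0.743% to 1.11% of counts in the core and 0.717% to 0.928% in the invasion zone. Of 8 melanocyte lineage markers, SOX10 and TYR were listed at 0 in all 4 libraries, where 3 counts would be 0.0798 to 0.254 CPM, and the 8 together summed to 2.91 to 6.06 CPM. MITF, named after its values were seen, was detected in every library at 1.71 to 3.37 CPM. Of 9 markers of other cell types, which summed to 18 to 29.4 CPM, 7 had at most 0.427 CPM in any library, and the sum lay mainly in COL17A1 and PECAM1 (named after their values were seen). PECAM1 had 18.1 and 7.43 CPM in the core and 5.23 and 0.926 CPM in the invasion zone, and COL17A1 had 10.6 and 13.5 CPM in the core and 18.1 and 17.0 CPM in the invasion zone. The part of these shifts in the results was not tested. The core was frozen immediately after punching and the invasion zone was inspected and punched afterwards, so handling of the tissue and zone cannot be told apart for the fast genes.

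The comparison of the zones asks which of these factors differ between invading and non-migratory cells. Of the 9 tested members, FOSL1 had the highest invasion zone level relative to the core, 2.04-fold, with both invasion zone libraries above both core libraries. JUND, JUNB and FOS had lower levels in the invasion zone, with 1.96-fold, 1.72-fold and 1.51-fold more in the core and no overlap of the zones. JUN was higher in the invasion zone within each replicate but differed more between replicates than between zones. FOSL2 and EGR1 stayed within 1.15-fold in the fit over the 4 libraries. Levels are CPM after TMM scaling of the libraries, a factor that balances their composition.

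None of the 9 tested members passed the test, edgeR's quasi-likelihood test with Benjamini-Hochberg adjustment over 15529 genes, at an adjusted p under 0.05 and a change of at least 2-fold. The test called 0 of the 15529 genes, 0% in either direction, with 0.128 as its smallest adjusted p. Where the p was left unadjusted, 454 genes (2.92%) were at least 2-fold higher with p under 0.05 and 909 (5.85%) at least 2-fold lower, and 1 member, FOSL1, was among the higher ones. With no fold minimum, an unadjusted p under 0.05 was reached by 1 member with a higher level (background 11.9%) and by 3 with a lower level (background 12.4%), namely JUND, JUNB and FOS. DESeq2, the tool of the study, called 341 genes higher (2.20%) and 549 lower (3.54%) on the same counts, and FOSL1 was the 1 member called. At an adjusted p under 0.05 with no fold minimum, DESeq2 held 4.73% of genes higher, FOSL1 among them, and 5.34% lower, JUNB and JUND among them. The protocol describes each invasion zone as the one corresponding to a punched core, without saying that the replicate number links them. In edgeR with the replicate number as a block, 530 genes (3.41%) were called higher and 1097 (7.06%) lower, and FOSL1 was the 1 member called. The zones did not overlap for 6 of the 9 tested members, 1 above and 5 below, beside 28.1% of all tested genes above, 30.3% below and 58.4% in either direction. An exact two-sided permutation test over 2 against 2 libraries cannot go below p = 0.333, so no such test is given for single values.

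**Figure D1:**
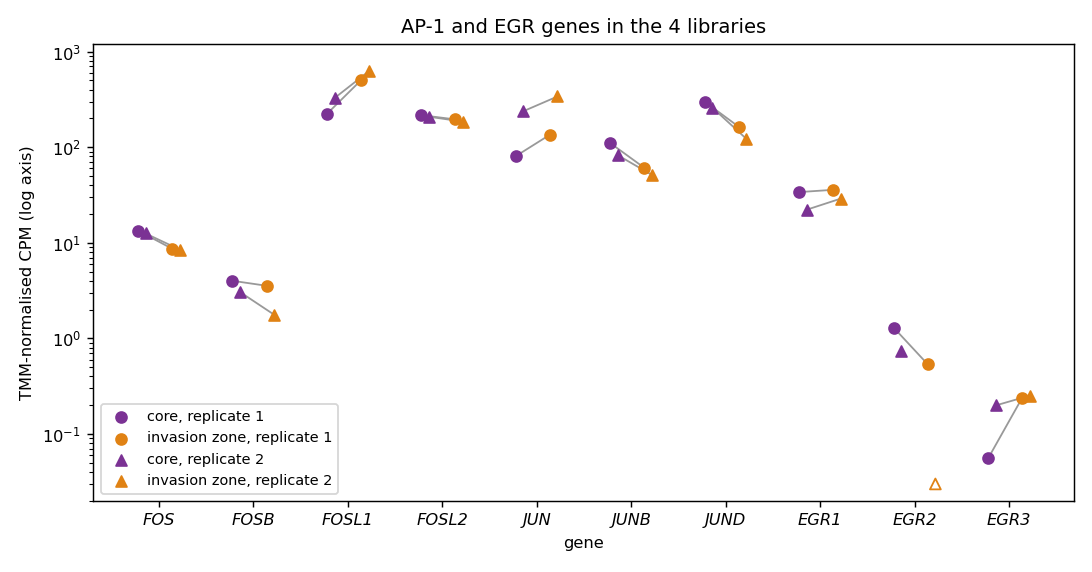
TMM-normalised CPM of the 10 genes (log axis) in the core (purple) and the invasion zone (orange), with circles for replicate 1, triangles for replicate 2 and grey lines joining libraries of the same number. FOSL1 lay at 223 and 326 CPM in the core and at 501 and 619 CPM in the invasion zone, and the open triangle marks EGR2 at 0 counts in invasion zone replicate 2, drawn at the bottom of the axis.

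Among the FOS-type genes, FOSL1 encodes FRA-1 (ENSG00000175592, GRCh38 chromosome 11, 65892049 to 65900573, minus strand, 4 exon blocks). Its level was 223 CPM and 326 CPM in core replicates 1 and 2, and 501 CPM and 619 CPM in invasion zone replicates 1 and 2. Both invasion zone libraries were higher than both core libraries, and replicate 2 was the higher in each zone. The core mean was 274 ± 72.6 CPM and the invasion zone mean 560.0 ± 83.1 CPM (SD, n = 2 each). The log2 fold change was 1.03 with a standard error of 0.23 (edgeR, adjusted p = 0.131). Within replicates, the ratio of the invasion zone to the core was 2.25 (exact 95% interval 2.19 to 2.31) in replicate 1 and 1.90 (1.83 to 1.97) in replicate 2, where the intervals cover counting error only. The counting error was thus far smaller than the distance between the replicates. DESeq2 gave an adjusted p of 0.00327 and edgeR with the replicate block 7.89e-05, and over the alternatives that were run the adjusted p of FOSL1 ranged from 1.65e-32 to 0.441 and its log2 fold change from 0.79 to 1.34. Without invasion zone replicate 1 the log2 fold change of FOSL1 was 1.17.

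FOSL2 encodes FRA-2, the other delayed member (chromosome 2, 28392448 to 28417317). It had 216 and 208 CPM in the core and 195 and 185 CPM in the invasion zone. The invasion zone libraries were both the lower ones, by a small margin, with a log2 fold change of -0.16 (standard error 0.13, edgeR adjusted p = 0.499). The within-replicate ratios were 0.903 (0.874 to 0.932) and 0.887 (0.840 to 0.937). FOSL2 thus differed little between zones in the same libraries in which FOSL1 was at 2.04-fold, and its sign turned to 0.07 after a correction for GC content and length.

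FOS, the classical immediate-early partner of JUN (chromosome 14, 75278826 to 75282230), had 13.4 and 12.5 CPM in the core and 8.67 and 8.50 CPM in the invasion zone. The replicates of a zone lay close together and the zones did not overlap, with a log2 fold change of -0.59 (standard error 0.20, edgeR adjusted p = 0.167). DESeq2 gave FOS an adjusted p of 0.214, and edgeR with the replicate block gave 0.0198 at a log2 fold change of -0.60, under 2-fold. The ratio of the core to the invasion zone was 1.54 (1.34 to 1.78) in replicate 1 and 1.48 (1.15 to 1.90) in replicate 2. FOSB, which encodes another fast partner of JUN (chromosome 19, 45467995 to 45475179), was lower still in level, with 4.0 and 3.05 CPM in the core and 3.55 and 1.77 CPM in the invasion zone. Its zones overlapped, and the log2 fold change of -0.37 (standard error 0.43) had an edgeR adjusted p of 0.638. That value rested on invasion zone replicate 2, since without it the log2 fold change was 0.

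Of the JUN-type genes, JUND (ENSG00000130522, chromosome 19, 18279694 to 18281622, minus strand, 1 exon) encodes the constitutive member. It had 298 and 259 CPM in the core and 163 and 122 CPM in the invasion zone. Neither invasion zone library reached the lower core library, with means of 278 ± 27.9 CPM (SD, n = 2) and 142 ± 29.3 CPM. The log2 fold change of -0.97 (standard error 0.19) had an edgeR adjusted p of 0.128 and a DESeq2 adjusted p of 0.00174, within a range of 4.8e-13 to 0.396 over the alternatives, and it was just short of 2-fold. The ratio of the core to the invasion zone was 1.83 (1.77 to 1.89) in replicate 1 and 2.13 (2.00 to 2.26) in replicate 2. Without invasion zone replicate 1 the log2 fold change of JUND was -1.20.

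JUNB, a fast member that often opposes JUN in its targets (chromosome 19, 12791486 to 12793315, 1 exon), had 110 and 82.2 CPM in the core and 60.7 and 51.2 CPM in the invasion zone. The zones did not overlap. The log2 fold change was -0.78 (standard error 0.20, edgeR adjusted p = 0.135), and DESeq2 gave an adjusted p of 0.0253 at less than 2-fold, within a range of 3.99e-06 to 0.497 over the alternatives. The ratio of the core to the invasion zone was 1.82 (1.72 to 1.91) in replicate 1 and 1.61 (1.46 to 1.77) in replicate 2. JUND and JUNB have the highest GC contents of the 10 genes, 69.9% and 64.9% of the canonical transcript, and a correction of each library for GC content and length moved their log2 fold changes to -0.56 and -0.47. JUNB shares 259 of its 1830 exonic bases with HOOK2 on the opposite strand, and since the strand setting of the counting is not given, reads of both cannot be told apart there.

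JUN, the transcript of c-Jun (ENSG00000177606, chromosome 1, 58776845 to 58784048, minus strand), had 80.7 and 238 CPM in the core and 135 and 339 CPM in the invasion zone. Both replicate 2 libraries lay above both replicate 1 libraries, and the zones overlapped. The replicate 2 level was 2.95-fold that of replicate 1 in the core and 2.50-fold in the invasion zone. Of the tested genes, 2.14% shifted at least 2.50-fold between replicates in both zones, either up in both or down in both. Within replicates the invasion zone was nevertheless the higher zone, with a ratio of 1.68 (1.60 to 1.76) in replicate 1 and 1.42 (1.36 to 1.49) in replicate 2. The log2 fold change over the 4 libraries was 0.57 with a standard error of 0.63 (edgeR adjusted p = 0.614), and with the replicate block it was 0.63 with a standard error of 0.08 (edgeR adjusted p = 0.000581), still under 2-fold. Without invasion zone replicate 2 it was -0.23, without core replicate 1 it was 0.01, without invasion zone replicate 1 it was 1.09 and without core replicate 2 it was 1.57. The JUN value thus depended on which library was left out.

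JUND and JUNB were lower in the invasion zone, whereas the zones overlapped for JUN and its direction depended on the library left out. The upstream sequences of the JUN-type genes are shown because these genes share a family. They are the 250 bases before the RefSeq gene start on GRCh38.p14, 5′ to 3′ on the strand of the gene, at chr1:58784048-58784297 (JUN, minus), chr19:12791236-12791485 (JUNB, plus) and chr19:18281623-18281872 (JUND, minus). Capitals mark the motifs that were found.
JUN: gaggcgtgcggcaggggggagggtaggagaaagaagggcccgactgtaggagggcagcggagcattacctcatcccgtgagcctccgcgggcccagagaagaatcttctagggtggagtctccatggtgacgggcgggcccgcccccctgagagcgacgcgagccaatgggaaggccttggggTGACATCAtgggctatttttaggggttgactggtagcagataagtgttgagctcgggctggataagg
JUNB: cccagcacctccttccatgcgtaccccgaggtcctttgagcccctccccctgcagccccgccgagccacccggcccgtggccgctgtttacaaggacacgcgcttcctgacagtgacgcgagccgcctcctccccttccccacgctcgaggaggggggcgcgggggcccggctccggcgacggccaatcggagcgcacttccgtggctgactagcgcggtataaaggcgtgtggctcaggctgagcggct
JUND: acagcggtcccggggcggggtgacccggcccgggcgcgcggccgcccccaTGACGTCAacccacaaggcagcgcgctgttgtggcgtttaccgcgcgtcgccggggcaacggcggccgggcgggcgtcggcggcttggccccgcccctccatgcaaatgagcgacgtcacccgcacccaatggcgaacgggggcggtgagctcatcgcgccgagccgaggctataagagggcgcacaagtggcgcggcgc
JUN held TGACATCA, a variant of the AP-1 site, 67 to 60 bases before its start, and JUND held TGACGTCA, the cAMP response element, 200 to 193 bases before its start. On either strand these motifs occur in 2.37% and 1.65% of 35116 windows of the same length. The other motifs searched on both strands were the AP-1 site TGAGTCA (4.2% of windows), the EGR sites GCGGGGGCG (4.72%) and GCGTGGGCG (0.720%), the ETS site CCGGAAGT (3.42%) and the CArG box bound by serum response factor (1.16%), of which the JUN, JUNB and JUND windows held none. TGACATCA and TGACGTCA do not overlap in these windows. These are matches of letters within 250 bases and nothing is drawn from them about binding. Windows were found for 8 of the 10 genes, and FOSL1 and EGR3 are named only.

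**Figure D2:**
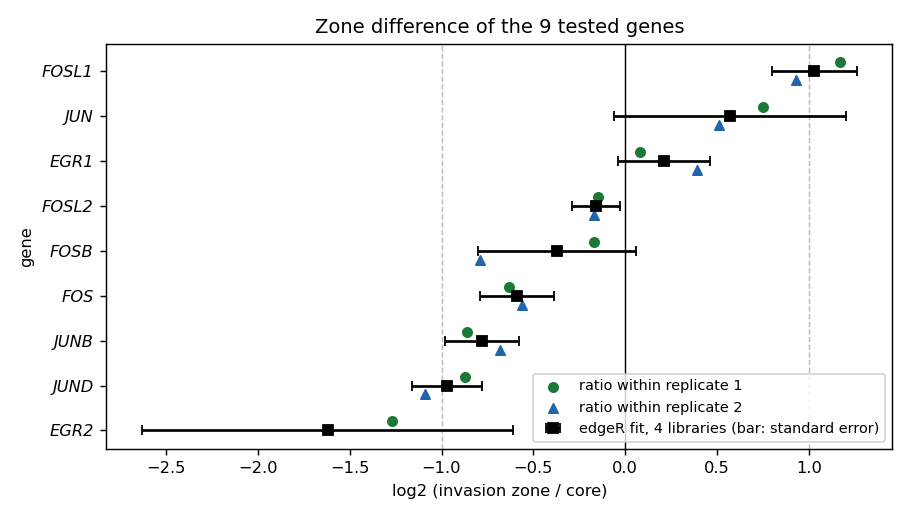
Log2 ratio of the invasion zone to the core for the 9 tested genes, with black squares and bars for the edgeR estimate over 4 libraries and its standard error, and circles and triangles for the ratio within replicate 1 and replicate 2. Dashed lines mark a 2-fold difference. FOSL1 stands at 1.03 and JUND at -0.97, JUN has a bar of 0.63 to either side, and EGR2 has no ratio in replicate 2 because the invasion zone had 0 counts.

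The relative amounts within each family were compared per length, as normalised CPM per kilobase of merged exons. In the core the order was FOSL1 (145 ± 38.5 CPM per kb, SD, n = 2), JUND (144 ± 14.5), JUNB (52.6 ± 10.8), JUN (44 ± 30.7), FOSL2 (29.6 ± 0.837), EGR1 (8.94 ± 2.65), FOS (4.07 ± 0.188), FOSB (0.635 ± 0.120), EGR2 (0.272 ± 0.106) and EGR3 (0.0253 ± 0.0201). FOSL1 and JUND overlapped there, as did JUNB with JUN and JUN with FOSL2, while the other neighbours were separated in both libraries. In the invasion zone FOSL1 stood alone at the top with 297 ± 44 CPM per kb, followed by JUND (73.7 ± 15.2) and JUN (65.5 ± 39.7), which overlapped. JUNB (30.6 ± 3.68), FOSL2 (26.5 ± 1.07), EGR1 (10.3 ± 1.53), FOS (2.70 ± 0.0385), FOSB (0.479 ± 0.227) and EGR2 (0.0720 ± 0.102) followed in that order, and EGR2 overlapped with EGR3 (0.0489 ± 0.00173). FOS, FOSB and the 3 EGR genes were thus the 5 lowest in both zones, whereas JUN and JUNB, which are also fast genes, ranked 3 and 4.

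FOSL1 made up 77.1% and 83.7% of the summed FOS-type level of the core and 89.7% and 91.9% of that of the invasion zone. FOSL2 took most of the rest, 19.7% and 14.1% in the core against 9.21% and 7.22% in the invasion zone. FOS itself was 2.74% and 1.91% of the FOS-type level in the core and 0.919% and 0.748% in the invasion zone. The summed FOS-type level was 153 and 206 CPM per kb in the core and 296 and 357 CPM per kb in the invasion zone, and the summed JUN-type level was 237 and 245 in the core and 155 and 185 in the invasion zone. In every core library the JUN-type sum exceeded the FOS-type sum, and in every invasion zone library it was the lower of the pair. These sums were not corrected for GC content. The GC and length correction moved the log2 fold changes of JUND and JUNB to -0.56 and -0.47. Those of JUN and FOSL1 moved to 0.81 and 1.24, and the effect on the sums was not tested. JUND made up 65.2% and 54.8% of the JUN-type level in the core and 54.5% and 34.1% in the invasion zone. JUN made up 9.39% and 26.8% in the core and 24.1% and 50.7% in the invasion zone, so that its share overlapped between zones and was the larger one in replicate 2 of each zone. JUN was the leading JUN-type transcript only in invasion zone replicate 2. The FOSL1 share was 10.4 percentage points higher in the invasion zone on average, and 10.6 with the length of the canonical transcript in place of merged exons. These shares are of transcripts, in bulk RNA, where fewer cells expressing a gene and less RNA per cell cannot be told apart.

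**Figure D3:**
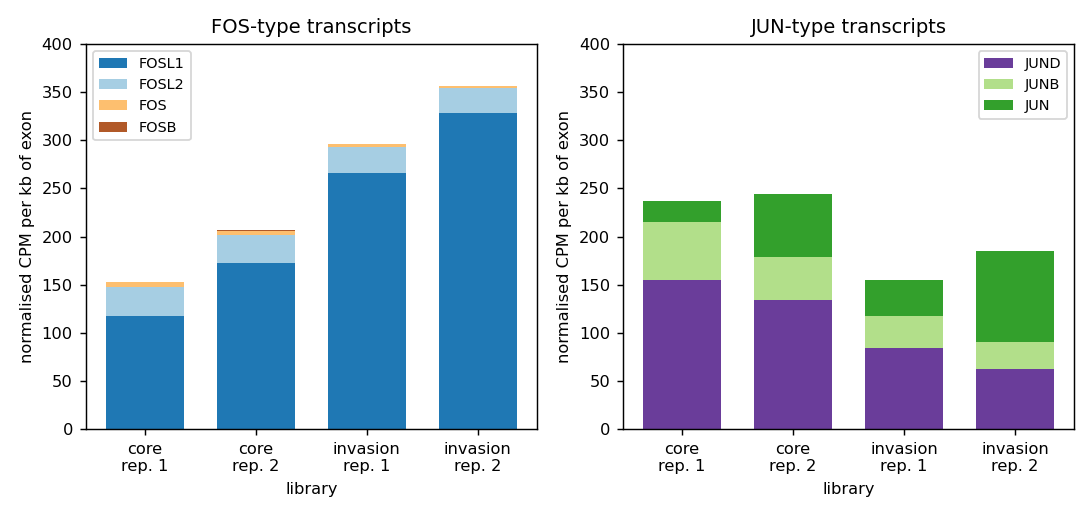
Stacked normalised CPM per kilobase of merged exons for the FOS-type genes (left) and the JUN-type genes (right) in each of the 4 libraries, with no error bars because each bar is 1 library. The FOS-type bars reach 153 and 206 in the core and 296 and 357 in the invasion zone and are mostly FOSL1, whereas the JUN-type bars reach 237 and 245 in the core and 155 and 185 in the invasion zone, with a JUND part of 65.2% and 54.8% in the core and 54.5% and 34.1% in the invasion zone.

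Of the early growth response genes, EGR1 (ENSG00000120738, chromosome 5, 138465479 to 138469303, plus strand, 2 exon blocks) was the only EGR gene above 1.29 CPM in any library. EGR1 had 33.9 and 22.2 CPM in the core and 35.8 and 29.0 CPM in the invasion zone, and the zones overlapped. The log2 fold change was 0.21 (standard error 0.25, edgeR adjusted p = 0.658), with a within-replicate ratio of 1.06 (0.976 to 1.14) in replicate 1 and 1.31 (1.12 to 1.53) in replicate 2. Its direction turned to -0.05 without core replicate 2, and an adjusted p of this size does not show that the zones are alike.

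The 250 bases before the RefSeq start of EGR1 (GRCh38.p14, chr5:138465229-138465478, plus strand, 5′ to 3′) are shown because serum response factor is the textbook route to this gene, and capitals mark the CArG boxes.
EGR1: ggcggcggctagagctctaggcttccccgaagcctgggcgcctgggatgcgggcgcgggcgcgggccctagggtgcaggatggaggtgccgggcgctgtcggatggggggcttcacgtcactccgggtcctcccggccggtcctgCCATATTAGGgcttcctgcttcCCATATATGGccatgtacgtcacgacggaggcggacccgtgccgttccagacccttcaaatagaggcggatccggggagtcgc
The window held 2 CArG boxes, at 105 to 96 and at 83 to 74 bases before the start, which do not overlap, and 1.16% of all windows held at least 1. EGR1 was the only one of the 8 members with a window in which a CArG box was found, and the windows of FOS, FOSB, FOSL2, JUNB and EGR2 held none of the motifs searched. Sites beyond these 250 bases were not searched, so a gene without a match here can hold one further upstream.

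EGR2, a factor known from hindbrain and Schwann cell development (chromosome 10, 62811996 to 62819167), had 46 and 11 counts in the core and 20 and 0 in the invasion zone, or 1.29, 0.730, 0.534 and 0 CPM. The 0 counts in invasion zone replicate 2 allow a level of up to 0.254 CPM, the value of 3 counts. The invasion zone libraries were both the lower ones, with a log2 fold change of -1.62 and a standard error of 1.01 (edgeR adjusted p = 0.380), and replicate 1 gave a core to invasion zone ratio of 2.41 (1.40 to 4.30). The fitted size depended on the library without counts, being -0.95 without it and -7.44 with it as the lone invasion zone library. EGR2 shares 145 of 3707 exonic bases with a gene on the same strand. EGR3 (chromosome 8, 22687659 to 22693480) had 2 and 3 counts in the core and 9 and 3 in the invasion zone and did not pass the filter. Its ratio of 4.30 in replicate 1 had an interval of 0.890 to 40.9, so no difference in EGR3 was detectable at this depth.

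The other genes of the pathway were taken from lists, with up to 4 genes of the smallest unadjusted p named in each. Of 26 other immediate-early genes, 25 were tested and 0 passed the edgeR test. The zones did not overlap for 18 of them, 12 above and 6 below in the invasion zone, with a median log2 fold change of 0.34 beside -0.01 for all genes tested. The list therefore held genes on both sides, with more above than below. Of all tested genes, 28.1% lay above, 30.3% below and 58.4% in either direction. CCN2, a matricellular target of YAP and SRF that the table lists as CTGF, had 75.7 and 93.2 CPM in the core and 212 and 261 CPM in the invasion zone (log2 fold change 1.49, standard error 0.19). CCN1, its close relative listed as CYR61, had 237 and 334 CPM against 577 and 752 CPM (1.22, standard error 0.24). MYC, a driver of growth, had 82.2 and 105 CPM in the core and 158 and 182 CPM in the invasion zone. NR4A2, an orphan nuclear receptor, went the other way, with 7.57 and 5.90 CPM in the core and 2.19 and 2.69 CPM in the invasion zone (-1.49, standard error 0.31). Each of these 4 genes had an adjusted p of 0.128 in edgeR.

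Of 12 other basic leucine zipper partners of AP-1, 10 were tested and 0 passed, with a median log2 fold change of -0.10. The zones did not overlap for 2 above and 2 below, 4 of 10 genes beside 58.4% of all tested genes. BATF2 had 3.91 and 2.12 CPM in the core and 1.63 and 0.252 CPM in the invasion zone, and BATF3 had 4.97 and 7.43 CPM against 7.95 and 11.4 CPM, both being factors that pair with JUN-type proteins. ATF2, a JUN partner at cAMP response elements, had 53.2 and 56.6 CPM in the core and 44.9 and 50.4 CPM in the invasion zone (log2 fold change -0.21). The directions in this list were thus mixed.

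Of 16 upstream kinases, factors and NAB corepressors, all were tested and 0 passed, with a median of -0.05. The zones did not overlap for 4 above and 6 below, 10 of 16 genes beside 58.4% of all tested genes. The list holds MAPK10, which the study picked from these libraries. NAB2, which binds EGR proteins and represses their targets and is itself induced by them, had 49.8 and 40.0 CPM in the core and 23.8 and 18.2 CPM in the invasion zone (log2 fold change -1.09, standard error 0.21, edgeR adjusted p = 0.128). MAPK8, the kinase JNK1 that phosphorylates c-Jun, had 23.0 and 32.8 CPM in the core and 36.3 and 57.7 CPM in the invasion zone. MAPK3, the kinase ERK1, had 27.9 and 19.2 CPM in the core and 16.9 and 12.2 CPM in the invasion zone. SRF, serum response factor, had 29.0 and 26.9 CPM in the core and 34.8 and 38.0 CPM in the invasion zone.

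Of 14 ERK feedback and output genes, all were tested and 0 passed, with a median of -0.10. The zones did not overlap for 4 above and 6 below, beside 28.1% of all tested genes above and 30.3% below. The ERK phosphatases DUSP4 and DUSP6 were lower in the invasion zone, where DUSP4 had 51.5 and 43.7 CPM against 88.4 and 88.5 CPM in the core (log2 fold change -0.89, standard error 0.15) and DUSP6 had 86.9 and 67.5 CPM against 110 and 113 CPM. DUSP5, a nuclear ERK phosphatase, had 7.35 and 11.4 CPM in the core and 18.4 and 26.4 CPM in the invasion zone (1.26, standard error 0.31). CCND1, which encodes cyclin D1, had 334 and 369 CPM in the core and 468 and 505 CPM in the invasion zone. The edgeR adjusted p of these 4 genes was 0.128 for DUSP4, 0.135 for DUSP5, 0.155 for CCND1 and 0.161 for DUSP6. Genes of this output list thus lay on both sides of the zone comparison, as genes did over the whole table.

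Of 18 AP-1-linked target genes, 16 were tested and 0 passed, with a median of 0.14. Without overlap of the zones, 7 genes lay above and 4 below, beside 28.1% of all tested genes above and 30.3% below. AXL, a receptor tyrosine kinase of dedifferentiated melanoma, had 633 and 629 CPM in the core and 1220 and 1120 CPM in the invasion zone (log2 fold change 0.89, standard error 0.14, edgeR adjusted p = 0.128). HMGA1, a chromatin protein, had 993 and 958 CPM in the core and 1560 and 1430 CPM in the invasion zone. PTGS2, the inducible cyclooxygenase, had 13.4 and 3.71 CPM in the core and 2.27 and 2.10 CPM in the invasion zone. Its log2 fold change was -1.98 (standard error 0.63), and core replicate 1 stood apart. Targets thus lay on both sides of the comparison.

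**Figure D4:**
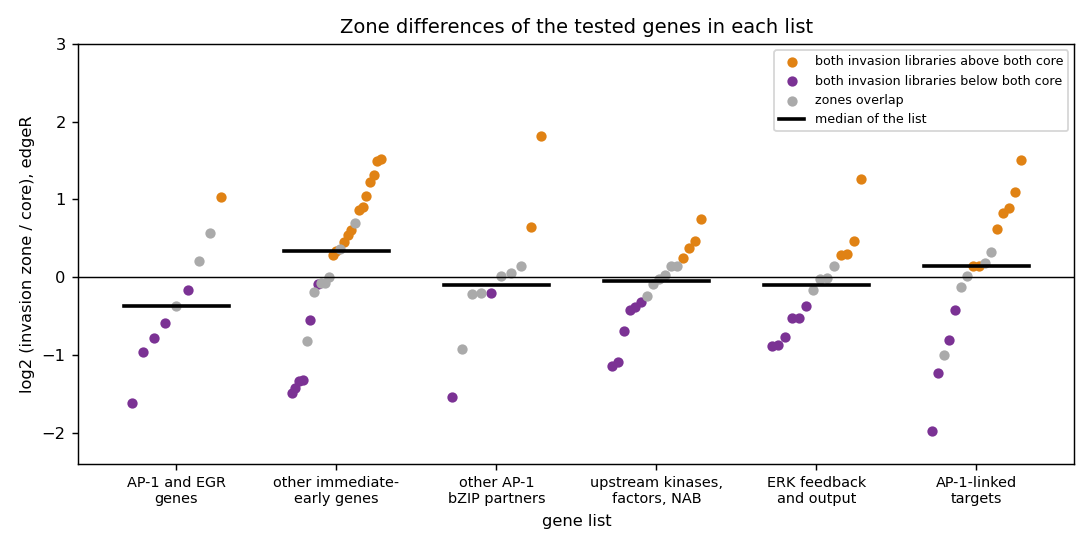
Log2 ratio of the invasion zone to the core (edgeR, 4 libraries) for each tested gene of the 10 AP-1 and EGR genes and of 5 lists, ordered by value within a list. Orange points have both invasion zone libraries above both core libraries, purple points have both below, grey points overlap, and black bars are medians, which lie between -0.37 for the AP-1 and EGR genes and 0.34 for the other immediate-early genes.

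The genes whose levels ran most like those of FOSL1 over the 4 libraries, by the distance between log2 CPM values centred on each gene's mean among 9549 tested genes of at least 10 CPM, were VEPH1 and DNA2 (distance 0.04 each) and DTYMK and DKC1 (0.05 each). VEPH1 had 59.9 and 87.0 CPM in the core and 132 and 170 CPM in the invasion zone. DNA2 encodes a replication nuclease, DTYMK a thymidylate kinase and DKC1 a pseudouridine synthase. DKC1 had 146 and 210 CPM in the core and 340 and 410 CPM in the invasion zone, and all 4 genes had log2 fold changes of 1.03 to 1.08. For EGR1 the nearest genes were NDUFB4 (0.03), TSHZ3 and COIL (0.06 each) and RPL36AL (0.07), and NDUFB4 had 81.6 and 52.9 CPM in the core and 85.6 and 67.7 CPM in the invasion zone. With 4 libraries such likeness is a description of 4 values.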

How the data were processed

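Total RNA from MV3 spheroid cores and invasion zones was converted to cDNA with the SMARTer Ultra low Input kit. The authors removed ribosomal reads with Bowtie, aligned to hg38 with STAR, used HTSeq-count on reads with a unique position and deposited the raw counts per gene. For these tools, versions, annotation and strandedness are not stated in the sources read here. The table held 56306 rows, of which 2 repeated rows without counts were left out, and column names gave zone and replicate. They also held a leading number, consecutive for the core and invasion zone of the same replicate number. What that leading number stands for is not stated. Counts were analysed in R 4.3.3 with edgeR 4.0.16, the quasi-likelihood test and TMM scaling, over the 15529 genes kept by filterByExpr. That filter asked for the CPM of 10 counts at the median library size in 2 libraries, and for a minimum total of 15. Calls needed an adjusted p under 0.05 (Benjamini-Hochberg) and at least 2-fold. Standard errors were derived from the F statistic. The test was without a replicate term, and the protocol takes the invasion zone that corresponds to each core but does not say that the replicate number links them. Within-replicate ratios carry exact 95% intervals (Clopper-Pearson), which cover counting error only. DESeq2 1.42.0, limma 3.58.1 voom, other scalings and filters, a replicate block, a GC and length correction, thinning and leaving out each library were the alternatives. Libraries of a zone were not duplicates, with chi-square per degree of freedom of 38.1 in the core and 35.5 in the invasion zone. Positions, lengths and GC content came from GENCODE release 44 on GRCh38, and upstream sequences from RefSeq on GRCh38.p14 (for EGR2, the outermost of 3 windows). Genes named beyond the 10 were the 4 of smallest unadjusted p in each of 5 lists (some of them are not reported here) and the 4 nearest in pattern to FOSL1 and to EGR1, over log2(CPM + 0.1). The members and lists were chosen with earlier results of these data known.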

Additional observations from a re-analysis of the deposited data

How the results depend on the processing

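The numbers of genes called higher and lower in the invasion zone, 0 and 0 in edgeR, stayed at 0 and 0 with RLE or upper-quartile scaling, a minimum of 10 counts per library, the legacy test, limma voom, no fold minimum, thinning, and the GC and length correction without the block. They were 454 and 909 at an unadjusted p, 427 and 846 without a low-count filter (32869 genes), and 341 and 549 with DESeq2; the cause was not tested. With the replicate block they were 530 and 1097 in edgeR and 429 and 757 in DESeq2, and 751 and 1017 with the GC and length correction and the replicate block, which moved the share of higher calls from 32.6% to 42.5%. The deviations of libraries with the same number from their zone means correlated across genes at 0.58. With 2 libraries per zone the 2 pairs mirror each other, so this value rests on a single contrast. Both replicate 2 libraries were also the shallower ones. The protocol speaks of the corresponding invasion zone of a core without saying that the number links them.

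With each library left out, 0 to 555 genes were higher and 4 to 1119 lower. Leaving out core replicate 1 gave 0 higher and 4 lower, core replicate 2 gave 168 and 74, invasion zone replicate 1 gave 555 and 1119, and invasion zone replicate 2 gave 34 and 134. Over the alternatives that kept all 4 libraries, the members called went from 0 higher and 0 lower to 0 to 1 higher and 0 to 1 lower. FOSL1 was the 1 member called higher with no low-count filter, DESeq2 with or without the block, the replicate block, the unadjusted p, and the GC and length correction with the block. In these settings 341 to 751 of all tested genes were called higher. The 1 lower call was EGR2 with the GC and length correction and the block, where 1017 of 15395 genes were called lower. Without invasion zone replicate 1 the log2 fold changes of JUND and EGR2 were -1.20 and -7.44.

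The direction turned for FOSL2 with the GC and length correction (0.07, and 0.07 with the block), for JUN without invasion zone replicate 2 (-0.23, within a range of -0.23 to 1.57 over the libraries left out) and for EGR1 without core replicate 2 (-0.05, within a range of -0.05 to 0.56). The other 6 tested members kept their direction under each alternative run, apart from FOSB, which was 0 without invasion zone replicate 2. With the replicate block, JUN had a log2 fold change of 0.63 (edgeR adjusted p = 0.000581), and without it 0.57 (edgeR adjusted p = 0.614), both under 2-fold. The FOSL1 share of the FOS-type level moved from 10.4 to 10.6 percentage points. A zone with 1 library left was assumed to vary like the other. Counts of 0 to 46 limit EGR2 and EGR3.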

Other observations

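Some immediate-early and inflammatory genes of the lists, chosen after their values were seen, followed the replicate number more than the zone, as JUN did. DUSP1, a phosphatase of stress kinases, had 49.1 and 80.4 CPM in the core and invasion zone of replicate 1 and 105 and 168 CPM in those of replicate 2. KLF4 went the other way, with 18.9 and 18.5 CPM in replicate 1 and 8.62 and 9.0 CPM in replicate 2. IL6 had 37.0 and 19.7 CPM in replicate 1 and 13.5 and 4.97 CPM in replicate 2. Their edgeR adjusted p for the zone was 0.428 for DUSP1, 0.999 for KLF4 and 0.444 for IL6. The replicates also differed in depth and in the summed proliferation level, and the part of either was not tested.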
